A study of Mus musculus with 4 samples.

Results

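The smooth muscle contractile genes described here are 10 genes chosen by name: Acta2, Actg2, Myh11, Tagln, Cnn1, Lmod1, Pln, Des, Mylk and Tpm2. Each matched 1 of the 32285 genes counted in 4 droplet single-cell RNA libraries of hindlimb muscle from mice aged 2 months, and all 10 were detected. The WT libraries came from S100GFPtg mice, which carry a green fluorescent protein transgene driven by the S100B promoter, active in Schwann cells. The Sod1KO libraries came from S100GFPtg Sod1-/- mice, which carry the same transgene and lack the superoxide dismutase Sod1. Tibialis anterior and gastrocnemius cells from 4 male mice per genotype were pooled and sorted into GFP+ and GFP- fractions. Each of the 4 groups (WT GFP+, Sod1KO GFP+, WT GFP- and Sod1KO GFP-) is therefore 1 library with no replicate, and neither sort was directed at smooth muscle.

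The libraries held 21959719 to 105954116 unique molecular identifiers (UMIs, each standing for 1 captured transcript), and any pair shared 1 to 13 cell barcodes. After filters, 17263 cells remained of 21415 barcodes. The WT GFP- library was the smallest, with 1638 cells, and 55.7% of its cells lay in clusters that took no cell type name. Sod1 itself was counted at 90.7, 98.3, 123 and 113 CPM (UMIs of a gene per 1000000 UMIs of the same cells) over the cells of WT GFP+, Sod1KO GFP+, WT GFP- and Sod1KO GFP-. The knockout was thus not visible as a lower Sod1 count, and since the 3′ tags may lie outside the deleted part, which the sources used here do not give, the count does not check the label. Every ratio below compares libraries as labelled.

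In smooth muscle cells, actin thin filaments slide along myosin thick filaments, and the myosin becomes active when calcium switches on a kinase that phosphorylates its light chain. Tropomyosin, calponin, transgelin and leiomodin bind the actin filament, while desmin forms intermediate filaments that tie the contractile apparatus to the cell's scaffold. In skeletal muscle tissue these cells encircle arteries and arterioles and set blood flow, and pericytes sit on the capillaries beyond them. Serum response factor, with its partner myocardin, is known to drive many contractile genes through short A/T-rich elements called CArG boxes.

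RefSeq promoter windows (250 bases before to 50 bases after the transcript start, build GRCm38.p6, the patch release of the files' mm10) were at hand for 7 of the 10 genes, and were not used here for Actg2, Tagln and Myh11. For Acta2, Mylk, Cnn1 and Tpm2 the window lies at a start inside the gene span given below, and no other start of these genes was searched. A CArG box is 10 bases long with a core of 6 bases, each A or T. No window of the 7 held an intact box on either strand, against 1.63% of 32851 promoters in RefSeq. With at most 1 core mismatch allowed, Acta2 alone among the 7 held any, and it held 2, against 9.98% of all promoters with at least 1. These 2 stretches are shown because Acta2 carried more UMIs than any other member, with the element in capitals.
Acta2 element starting 84 bases before the transcript start (minus strand, chr19:34255438-34255467): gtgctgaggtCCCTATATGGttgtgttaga
Acta2 element starting 34 bases before the transcript start (minus strand, chr19:34255388-34255417): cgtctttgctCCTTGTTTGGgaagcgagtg
Each has 5 of 6 core bases A or T. A match of letters is a description and says nothing on binding.

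Cells were clustered with the 10 genes and a wider contractile list left out, so that their levels had no part in making the cell classes. A single cluster took the name smooth muscle-like, with 19 of 19 non-contractile smooth muscle markers passing (for example Mustn1, Susd5 and Ntf3). Its 1161 cells were split as 554 (WT GFP+), 389 (Sod1KO GFP+), 36 (WT GFP-) and 182 (Sod1KO GFP-). The summed level of its marker list was 21266, 19567, 22308 and 20062 CPM in these libraries, against 2654 to 3402 CPM in the pericyte-like class. These markers were chosen with earlier results of these data known, so the values describe the cluster and do not test its name. A pericyte-like class, 2 clusters of mixed mural (vessel wall) and endothelial markers and an unnamed cluster led by Actg2 are described beside it. The cluster of smooth muscle and endothelial markers and the cluster of pericyte and endothelial markers may hold more than 1 cell type per droplet, which was not tested.

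The 10 genes were highly concentrated. In WT GFP+, smooth muscle-like cells were 12.2% of cells and held 91.9% of the member UMIs. In Sod1KO GFP+ they were 6.57% of cells and held 85.6%. In WT GFP- and Sod1KO GFP- they were 2.20% and 3.54% of cells and held 62.9% and 70.1%. Within the class the members took 6.27%, 6.47%, 6.39% and 6.16% of all UMIs, a narrow range over the 4 libraries. Among named classes of at least 50 cells, each of the 10 genes was highest in smooth muscle-like cells in WT GFP+, Sod1KO GFP+ and Sod1KO GFP-, although Des in Sod1KO GFP+ stood at 426 CPM (95% exact Poisson interval 411 to 442) beside 417 CPM in satellite-like cells and did not differ beyond counting error. In satellite-like cells of WT GFP+, too few (38) to be ranked, Des was at 688 CPM and so above its 592 CPM in smooth muscle-like cells. Over single clusters of all libraries, Des was highest in an unnamed cluster of skeletal fibre and tenocyte markers (947 CPM), then in satellite-like (542 CPM) and smooth muscle-like cells (530 CPM), and Actg2 and Cnn1 were highest in the Actg2 cluster. WT GFP- was not ranked, with only 36 such cells. All intervals cover counting error only; with 1 library per group and pooled mice, no variation between animals was measured and no test was made.

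**Figure D1:**
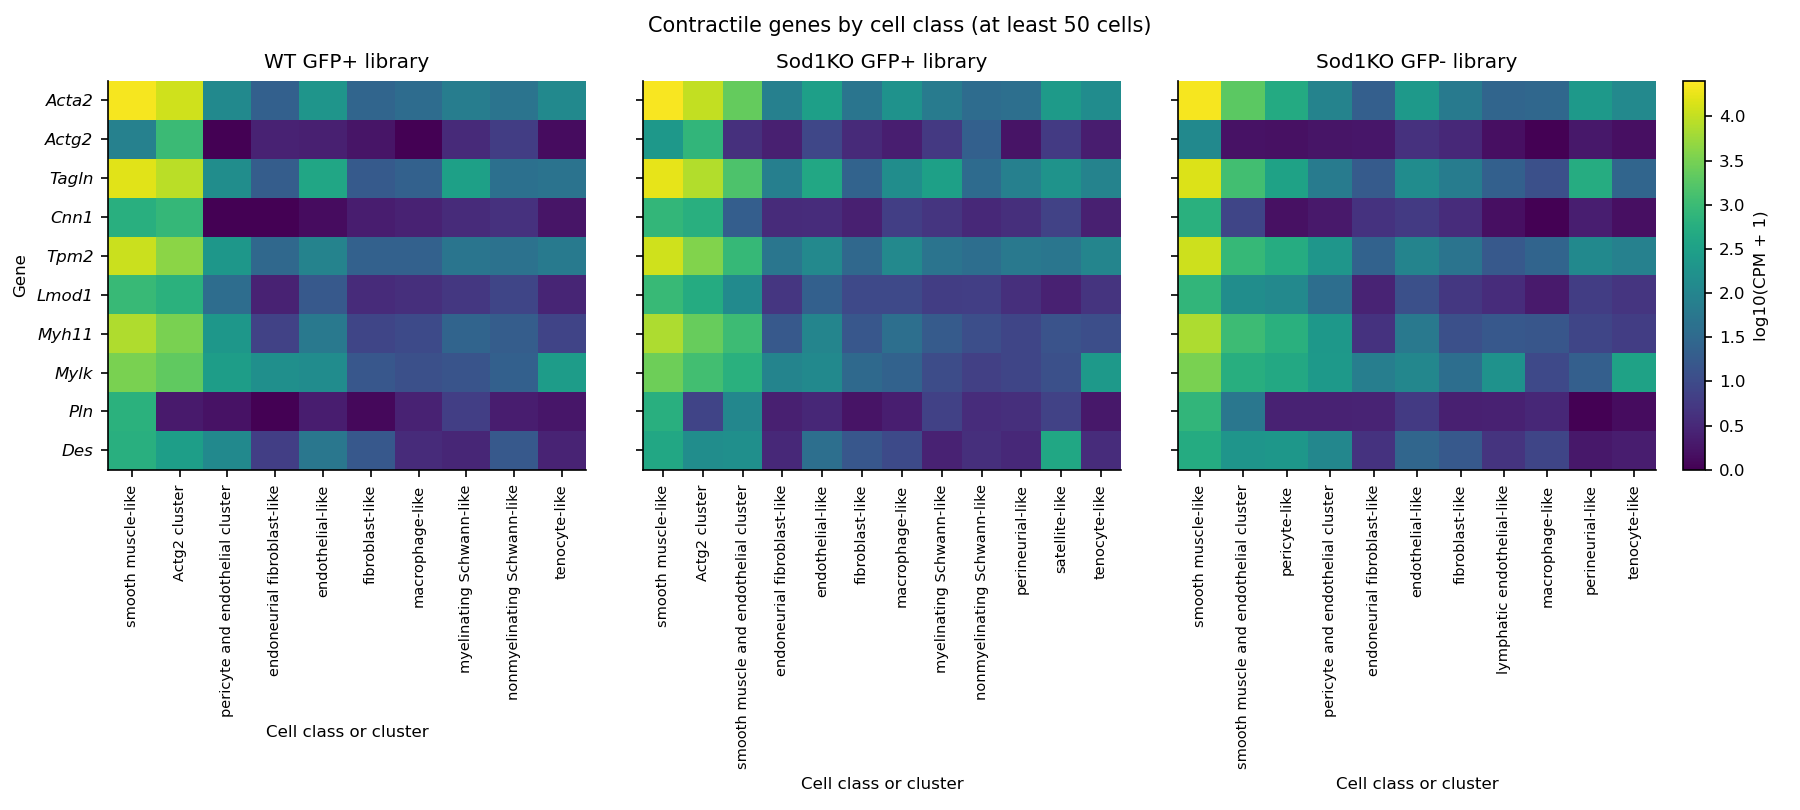
Level of each of the 10 genes, as log10(CPM + 1), in each class or described cluster of at least 50 cells (columns), for WT GFP+, Sod1KO GFP+ and Sod1KO GFP-. Color gives the level; the smooth muscle-like column is the brightest of the named classes in each row (Des in Sod1KO GFP+ is level with satellite-like cells), Actg2 and Cnn1 are also high in the Actg2 cluster, and Des stands out in satellite-like cells.

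The thin filament is built from actin. Acta2 (chr19:34240336-34255585), smooth muscle alpha-actin, was at 22094 CPM (interval 22012 to 22177) in WT GFP+ smooth muscle-like cells. The Sod1KO GFP+ level was 22518 CPM (22409 to 22628), the WT GFP- level 23895 CPM (23570 to 24223) and the Sod1KO GFP- level 21965 CPM (21817 to 22114). The 4 libraries lay close together, with WT GFP- highest. Actg2 (chr6:83512909-83536251), the gamma-actin typical of visceral smooth muscle, was at 83.9 CPM (78.9 to 89.1), 219 CPM (208 to 230.0), 22 CPM (13.2 to 34.4) and 123 CPM (112 to 134) in the order WT GFP+, Sod1KO GFP+, WT GFP- and Sod1KO GFP-. Here no library overlapped another, and both Sod1KO libraries lay above both WT libraries. Both actins are nearly identical as proteins, and how reads from similar stretches of the genes were assigned was not tested.

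The proteins that bind the actin filament come next. Tpm2 (chr4:43513726-43523583), beta-tropomyosin, which is also a skeletal muscle gene, was at 11369, 12086, 10476 and 11657 CPM in WT GFP+, Sod1KO GFP+, WT GFP- and Sod1KO GFP-. Both Sod1KO libraries lay above both WT libraries and no intervals overlapped, as for Actg2, but the levels lay much closer together. Tagln (chr9:45929628-45936058), transgelin or SM22-alpha, was at 15771, 17288, 15922 and 14653 CPM. Cnn1 (chr9:22099221-22109221), calponin 1, which inhibits the myosin ATPase on actin, was at 595, 811, 621 and 614 CPM. Cnn1 was highest in Sod1KO GFP+ (791 to 832), with the other 3 libraries overlapping. Lmod1 (chr1:135324813-135368065), leiomodin 1, which nucleates actin filaments, was at 938, 924, 819 and 783 CPM, with the GFP+ pair above the GFP- pair.

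Of the motor and its switch, Myh11 (chr16:14194527-14292188), the smooth muscle myosin heavy chain, was at 7440, 7118, 7882 and 7182 CPM. Mylk (chr16:34745199-35002436), the myosin light chain kinase, was at 3211, 2681, 3087 and 3302 CPM, lowest in Sod1KO GFP+. The 3′ tags do not tell the long and short kinases and telokin, all made from the Mylk gene, apart. Pln (chr10:53337686-53345999), phospholamban, which restrains the calcium pump of the sarcoplasmic reticulum, was at 653, 605, 584 and 784 CPM, highest in Sod1KO GFP-. Des (chr1:75360292-75368579), desmin, was at 592, 426, 614 and 506 CPM, and both Sod1KO libraries lay below both WT libraries. These 3′ UMI counts were not scaled by gene length, so the order of levels between genes depends also on how well each gene's tag is captured.

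**Figure D2:**
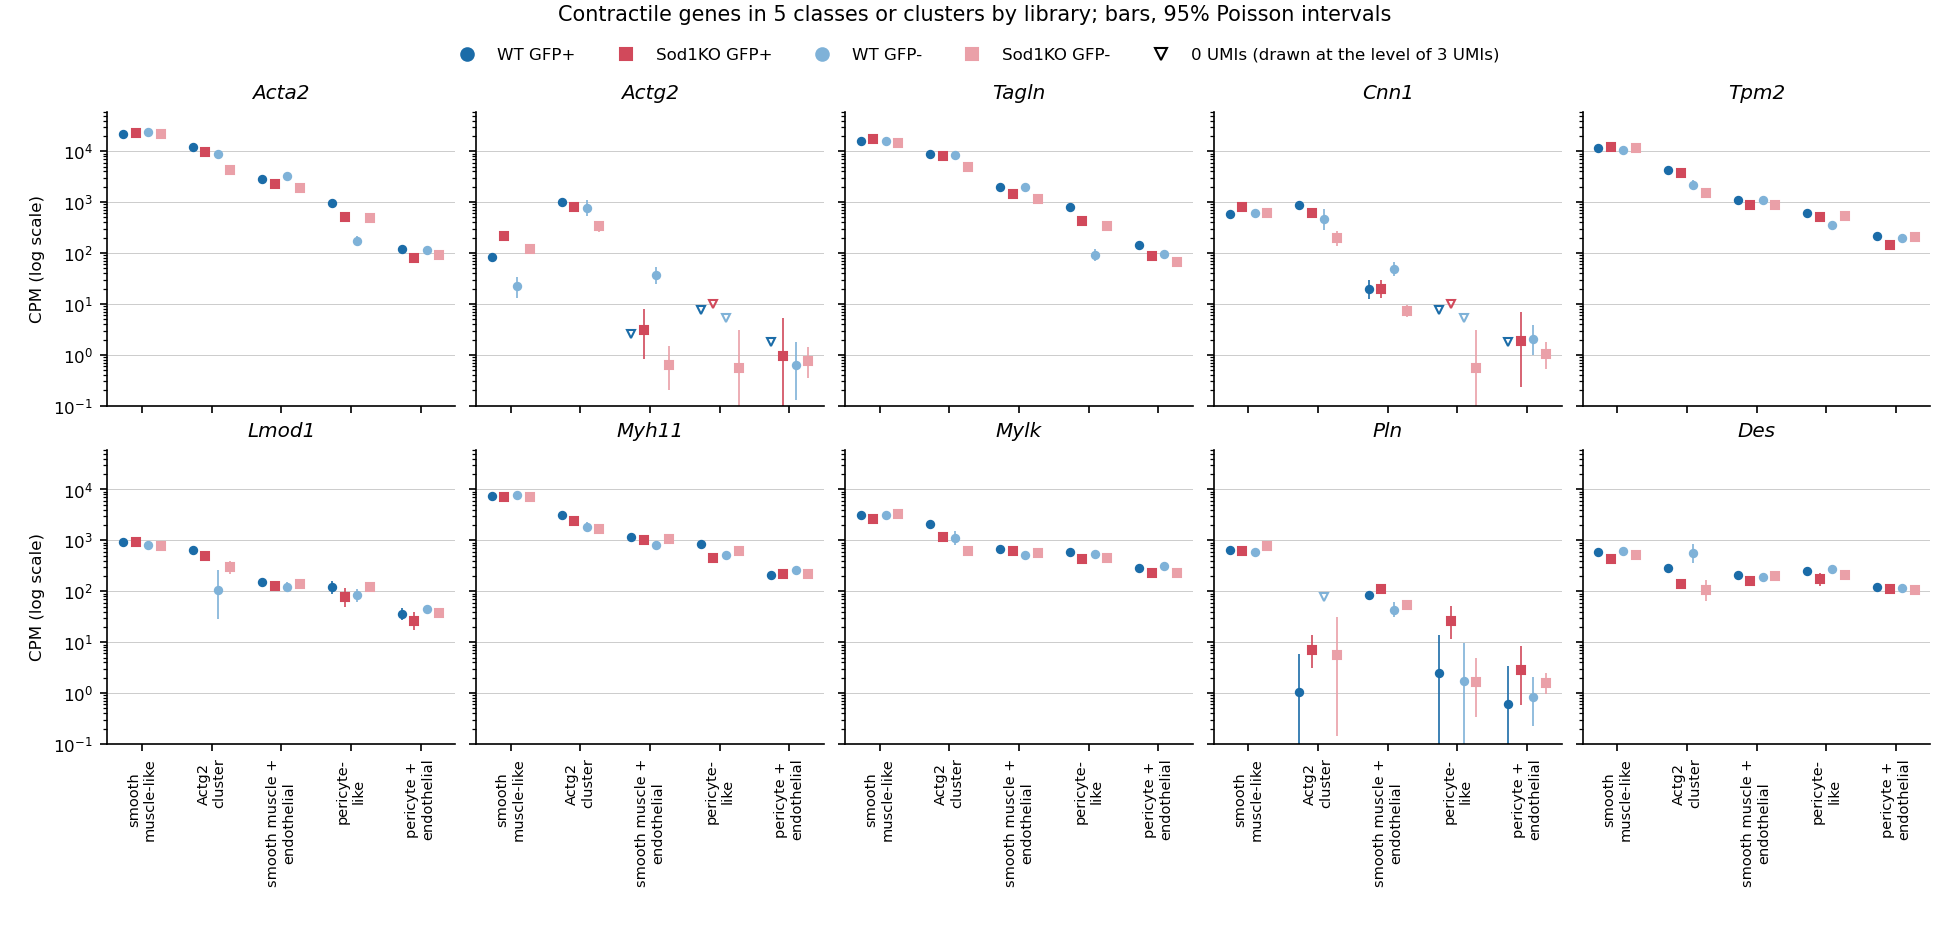
Level (CPM, log axis) of each of the 10 genes in the smooth muscle-like and pericyte-like classes, the 2 clusters of mixed markers and the unnamed Actg2 cluster of the 4 libraries, with exact 95% Poisson bars cut at the lower edge of the axis; open triangles mark 0 UMIs, drawn at the level of 3 UMIs. Acta2 and Tagln are lower in the pericyte-like than in the smooth muscle-like class, Actg2 is highest in the Actg2 cluster, and Pln is near the floor in the Actg2 cluster and in pericyte-like cells.

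At equal depth the program was present in nearly every smooth muscle-like cell. When each cell was thinned to 1000 UMIs, the median cell showed 7, 7, 6 and 7 of the 10 genes in WT GFP+, Sod1KO GFP+, WT GFP- and Sod1KO GFP-, and 98.7%, 99%, 100% and 99.5% of cells showed 5 or more. The median cell held 61, 64, 54 and 60 member UMIs per 1000. Pericyte-like cells showed a median of 2, 1, 1 and 2 genes. Of macrophage-like cells, which should lack the program, 89.8%, 85.0% and 85.3% showed none in WT GFP+, Sod1KO GFP+ and Sod1KO GFP-. Across single smooth muscle-like cells the rank correlation differed between pairs of genes. That of Acta2 with Tagln in WT GFP+ was 0.59 over 554 cells that share a library, while that of Acta2 with Mylk was 0.09. Mylk had fewer UMIs per cell than Tagln, and the part of counting noise in these values was not tested.

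Pericytes were compared with smooth muscle-like cells of the same library, and all 10 genes were more than 1.5-fold higher in the smooth muscle-like class of both GFP+ libraries. Of all genes, 60.8% in WT GFP+ and 59.8% in Sod1KO GFP+ passed the same fold in either direction, so 10 of 10 exceeds a background that is itself high. The median log2 ratio of the members was 3.84 in WT GFP+ and 4.48 in Sod1KO GFP+, against −0.38 and −0.34 over all genes. In Sod1KO GFP- 10 of 10 members were past the fold and higher, against 58.8% of all genes, and in WT GFP- 9 of 9 with enough UMIs (Actg2 had too few), against 57.5%. The pericyte-like class of the GFP+ libraries was small, at 39 and 36 cells.

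Members differed widely in how far pericytes fell below smooth muscle. Acta2 in pericyte-like cells was at 953, 512, 175 and 485 CPM in WT GFP+, Sod1KO GFP+, WT GFP- and Sod1KO GFP-, which made it 23.2-fold (log2 4.54, interval 4.39 to 4.68) and 44.0-fold (log2 5.46, 5.23 to 5.70) higher in smooth muscle-like cells of the GFP+ libraries. Tagln followed it, at 799, 432, 92 and 343 CPM in pericyte-like cells and log2 ratios of 4.30 and 5.32. Myh11 was at 842, 452, 512 and 619 CPM there, with log2 ratios of 3.14 and 3.98. Tagln and Acta2 were thus lowest in WT GFP- pericyte-like cells, while Myh11 was lowest in Sod1KO GFP+.

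Des separated the classes least. It was at 249, 173, 273 and 211 CPM in pericyte-like cells, with log2 ratios of 1.25 (0.96 to 1.55) and 1.30 (0.91 to 1.73), and desmin is known in pericytes. Mylk was at 602, 429, 529 and 448 CPM, with log2 ratios of 2.41 and 2.64. Tpm2 (615, 512, 359 and 527 CPM) and Lmod1 (121, 76.4, 85.1 and 119 CPM) lay between, with log2 ratios of 4.21 and 4.56 for Tpm2 and of 2.96 and 3.596 for Lmod1. Pericyte-like levels of these 4 genes varied by less than 2-fold over the libraries.

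Actg2, Cnn1 and Pln were at or near 0 in pericyte-like cells. Actg2 and Cnn1 each had 0 UMIs in WT GFP+, Sod1KO GFP+ and WT GFP- and 1 UMI in Sod1KO GFP-. Against a floor of 3 UMIs per class, Cnn1 was at least 78.7-fold higher in smooth muscle-like cells in WT GFP+ and at least 81.4-fold higher in Sod1KO GFP+, and Actg2 at least 11.1-fold and 22-fold higher. Pln had 1 UMI in WT GFP+ (log2 ratio 8.02, 5.54 to 13.32) and 8 UMIs in Sod1KO GFP+ (log2 ratio 4.51, 3.53 to 5.72). Those 3 genes thus marked smooth muscle-like cells against pericyte-like cells more sharply than Des or Mylk did, as far as these UMI counts go.

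The cluster with smooth muscle and endothelial markers, 48, 60, 60 and 347 cells, held the members at intermediate levels. Acta2 was at 2908, 2298, 3200 and 1920 CPM there, Myh11 at 1180, 1029, 826 and 1056 CPM, and Tpm2 at 1110, 876, 1098 and 876 CPM. Its leading genes included Olfr78, Pcsk1 and Gja5. Cnn1 was at 19.8, 20.0, 48.6 and 7.39 CPM, highest in WT GFP-, where it reached 15.2 UMIs per 1000 Acta2 UMIs, against 3.85 in Sod1KO GFP- and 28.0 in smooth muscle-like cells of Sod1KO GFP-.

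A cluster of 154 cells was led by Actg2 and was given no name, because its 10 leading genes included the skeletal fibre myosin Myh2 but no smooth muscle marker of the list. It held 55, 79, 3 and 17 cells in WT GFP+, Sod1KO GFP+, WT GFP- and Sod1KO GFP-. Its smooth muscle marker list summed to 9201 CPM in WT GFP+ and 8226 CPM in Sod1KO GFP+, its pericyte list to 2318 and 2701 CPM, its fibroblast list to 4471 and 5227 CPM and its skeletal fibre list to 146 and 276 CPM. In WT GFP+ the markers Susd5, Kcna5 and Grip2 were at 0, and in Sod1KO GFP+ 19 of 19 were detected. The part that mixed droplets play in this cluster was not tested.

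Actg2 in that cluster was at 986 CPM (923 to 1051), 792 CPM (741 to 845), 780 CPM (527 to 1114) and 335 CPM (255 to 432), lowest in Sod1KO GFP-, where it rests on 59 UMIs. Relative to smooth muscle-like cells of the same library, Actg2 was higher by a log2 ratio of 3.55 (3.43 to 3.68) in WT GFP+ and 1.85 (1.73 to 1.97) in Sod1KO GFP+. The cluster held 45.0% of all Actg2 UMIs in WT GFP+ and 30.1% in Sod1KO GFP+. The other members went the other way or were mixed. Acta2 was lower by log2 ratios of −0.87 and −1.21, Myh11 by −1.21 and −1.59, and Des by −1.02 and −1.59. Cnn1 was higher in WT GFP+ (0.53) and lower in Sod1KO GFP+ (−0.43). Pln was nearly absent from the cluster, with 1 UMI in 55 cells and 8 UMIs in 79 cells, for log2 ratios of −9.27 (−14.58 to −6.79) and −6.41 (−7.62 to −5.43). In Sod1KO GFP+ only 1.27% of the 79 cells held those 8 UMIs, and the interval does not cover such clumping. The cluster was described after its leading gene was seen, so the Actg2 values are a description.

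Within the smooth muscle-like class, Actg2 was carried by few cells, unlike the rest. In WT GFP+ 109 of 554 cells (19.7%) had an Actg2 UMI, and in Sod1KO GFP+ 152 of 389 (39.1%). In WT GFP- 3 of 36 (8.33%) had one, and in Sod1KO GFP- 37 of 182 (20.3%). In macrophage-like cells 0% had one in WT GFP+, 1.44% in Sod1KO GFP+ and 0% in Sod1KO GFP-, at median depths of 17404, 13560 and 12506 UMIs, against 21297, 17421, 21286 and 20460.5 UMIs for smooth muscle-like cells of the 4 libraries. Thinned to 1000 UMIs, the share was 4.69% (exact binomial interval 3.09 to 6.80), 11.6% (8.56 to 15.2), 0 of 36 cells (upper limit 9.74%) and 7.69% (4.27 to 12.6). The interval of Sod1KO GFP+ lay above that of WT GFP+; it covers the draw of cells within a library and not the difference between mice. In WT GFP+, 14 cells held 50% of the Actg2 UMIs, while for Acta2 164 cells did.

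Cells with at least 10 Actg2 UMIs, a cutoff set after the data were seen, were compared with smooth muscle-like cells of the same library that had none. They numbered 30 (5.42%), 55 (14.1%), 1 (2.78%) and 17 (9.34%) in WT GFP+, Sod1KO GFP+, WT GFP- and Sod1KO GFP-. In the 3 libraries with more than 1 such cell, the log2 ratios for Cnn1 were 1.31 (1.22 to 1.41), 1.38 (1.29 to 1.47) and 1.06 (0.90 to 1.21). Tagln was higher as well, by 0.65, 0.72 and 0.81. Des was lower, with ratios of −1.53 (−1.73 to −1.34), −1.03 (−1.21 to −0.86) and −1.08 (−1.36 to −0.80), and Pln was lower too, with −0.44, −1.42 and −0.54. Mylk differed little, at 0.02, −0.19 and 0.04. Actg2-rich cells were also deeper, with a median of 30537 UMIs in WT GFP+ against 20149 in cells with none, and 22081 against 16537 in Sod1KO GFP+; the part of depth was not tested.

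**Figure D3:**
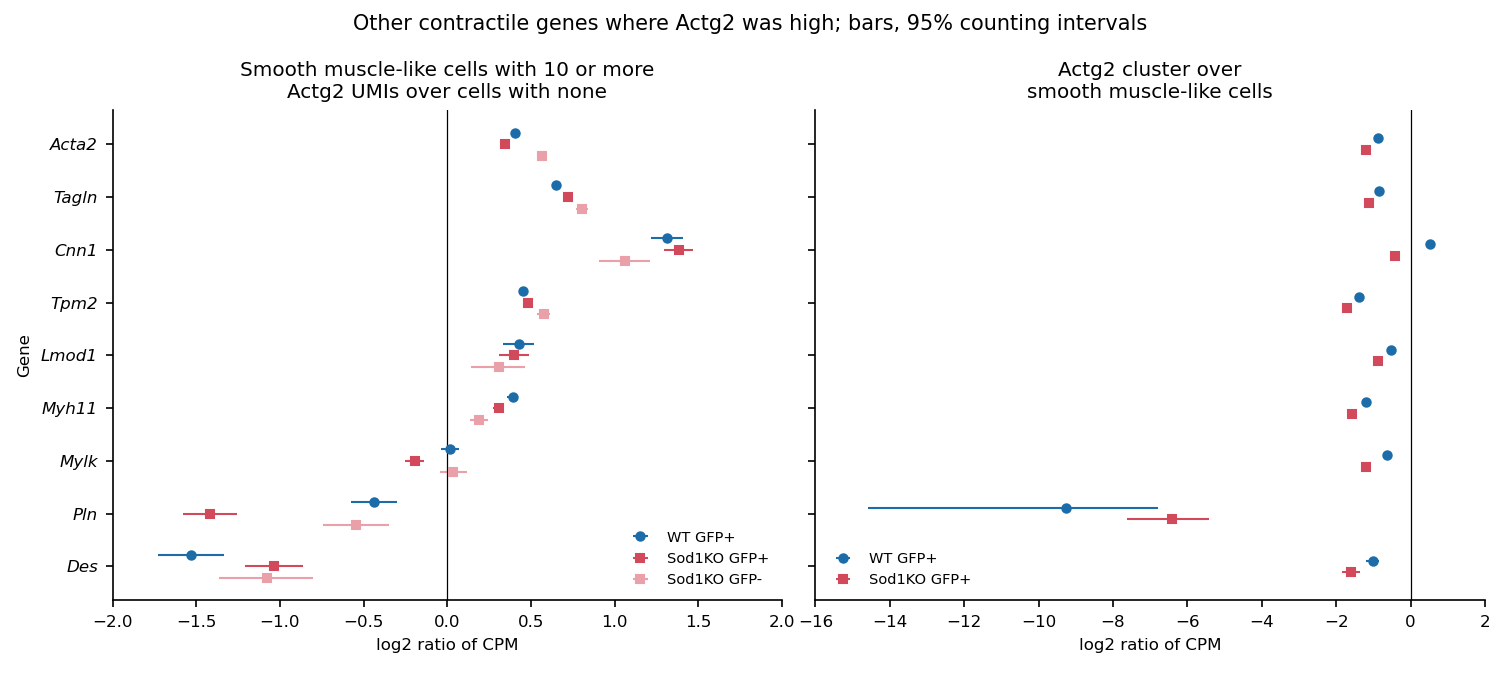
Log2 ratios with 95% counting intervals for the other 9 genes. Left, smooth muscle-like cells with at least 10 Actg2 UMIs over cells with none, in WT GFP+, Sod1KO GFP+ and Sod1KO GFP-; right, the Actg2 cluster over smooth muscle-like cells in the 2 GFP+ libraries. Cnn1 lies to the right of 0 and Des and Pln to the left of 0 in each library of the left panel, while on the right most genes are below 0 and Pln is farthest below.

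Whether the genotypes differed was asked within each sort. In the smooth muscle-like class of the GFP+ sort, 1 of 10 members was past 1.5-fold, against 12.0% of all genes tested, so the share of members was no larger than the background. In the GFP- sort it was again 1 of 10, against 24.6% of all genes. The median log2 ratio of Sod1KO over WT was 0.00 for the members in GFP+ and −0.04 in GFP-, equal to the medians over all genes to 2 decimals (−0.00 and −0.04). The log2 shift that median-of-ratios scaling takes out of every ratio was −0.11 in GFP- and −0.002 in GFP+, so GFP- ratios are higher by that amount after it.

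The member past the fold was Actg2 in both sorts. In GFP+ it was 2.61-fold higher in Sod1KO (log2 1.38, interval 1.27 to 1.498). In GFP- it was 5.58-fold higher (log2 2.48, 1.82 to 3.22), but the WT GFP- value rests on 19 UMIs from 3 cells. The Actg2 cluster did not follow, with a log2 ratio of −0.32 (−0.45 to −0.18) in GFP+. Counting that cluster as smooth muscle-like lowered the log2 ratio to 1.01 in GFP+ and 1.28 in GFP-. In the GFP- cluster of smooth muscle and endothelial markers the direction was opposite, with 36.4 CPM in WT (30 UMIs, 60 cells) and 0.637 CPM in Sod1KO (5 UMIs, 347 cells). Requiring more than 500 genes and under 5% mitochondrial UMIs per cell left 48 Sod1KO and 77 WT cells in GFP+ (log2 0.92). In GFP- the class then held 8 Sod1KO cells and, by taking in another cluster, 99 WT cells (log2 −0.32).

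Des was lower in Sod1KO in both sorts, by a log2 ratio of −0.47 (−0.53 to −0.41) in GFP+ and −0.28 (−0.42 to −0.14) in GFP-, short of 1.5-fold. In GFP- its direction turned under the stricter filter just described (log2 0.84), where the WT cells were another set. The direction also turned when the contractile genes took part in the clustering (0.06). Cnn1 stood at 0.45 (0.40 to 0.50) in GFP+ and −0.02 (−0.15 to 0.12) in GFP-. Myh11 stood at −0.06 and −0.13, Lmod1 at −0.02 and −0.06, and Tpm2 at 0.09 and 0.15. Acta2, Tagln, Pln and Mylk had opposite signs in the 2 sorts with both counting intervals off 0, and Cnn1 with the GFP- interval spanning 0. The GFP- ratios of Acta2 and Tagln, both −0.12, were close in size to the −0.11 scaling shift given above. The smooth muscle-like mitochondrial share was 6.83%, 7.21%, 5.27% and 8.49% over WT GFP+, Sod1KO GFP+, WT GFP- and Sod1KO GFP-; its part in these ratios was not tested.

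**Figure D4:**
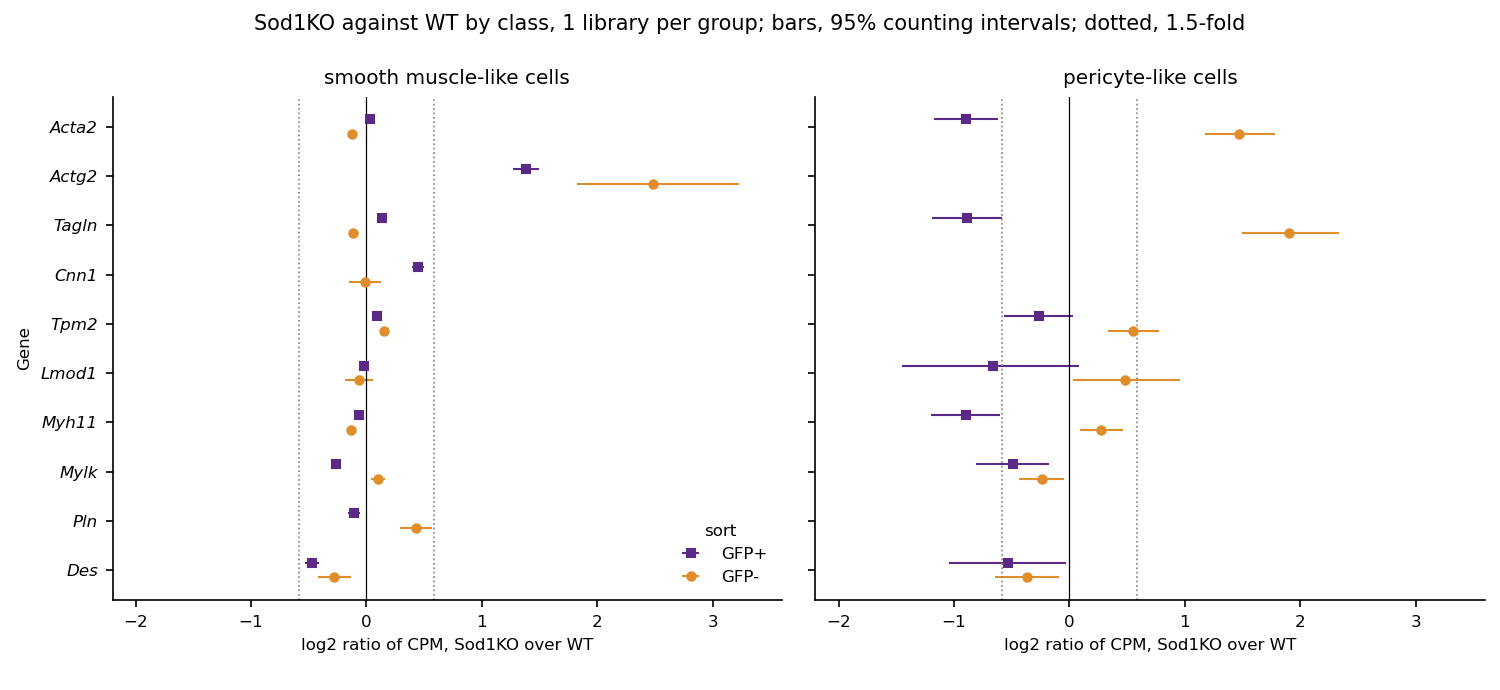
Log2 ratio of Sod1KO over WT with 95% counting intervals for the 10 genes, in smooth muscle-like and pericyte-like cells, GFP+ as squares and GFP- as circles; dotted lines mark 1.5-fold. In smooth muscle-like cells only Actg2 passes the lines in both sorts, while in pericyte-like cells Acta2 and Tagln lie below 0 in GFP+ and above 0 in GFP-.

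In pericyte-like cells Acta2, Myh11 and Tagln differed in sign between the sorts with both counting intervals off 0. Lmod1 (−0.66 in GFP+ and 0.48 in GFP-) and Tpm2 (−0.26 and 0.55) did too, each with a GFP+ interval spanning 0. Thinned to 1000 UMIs, the shares of cells with an Acta2, Myh11 or Tagln UMI had overlapping Sod1KO and WT intervals in each sort. Actg2, Cnn1 and Pln had too few UMIs for a ratio there. In GFP+, 4 of the 7 other members were past 1.5-fold, all lower in Sod1KO, against 29.3% of all genes: Acta2 (−0.90), Myh11 (−0.90), Tagln (−0.89) and Lmod1 (−0.66, interval −1.45 to 0.08). In GFP-, 2 of 7 were past it, both higher in Sod1KO, against 26.4% of all genes, namely Acta2 (1.47) and Tagln (1.90). The GFP+ share was above its background and the GFP- share close to its own, but the GFP+ count was 1 when contractile genes took part in the clustering, and 0 with a per-cell marker rule or a fold of 2. The GFP- count was 4 after median-of-ratios scaling, 1 with the stricter filter and 0 with the per-cell marker rule. Beside these, Acta2 in macrophage-like cells was at 35.1, 171, 14.6 and 28.8 CPM and Tagln at 22, 140, 8.76 and 10.7 CPM in WT GFP+, Sod1KO GFP+, WT GFP- and Sod1KO GFP-. For both genes the Sod1KO library of each sort had the higher macrophage-like value, on 3 and 10 UMIs of Tagln in GFP-, although the share of cells with an Acta2 UMI was 45.8%, 38.0%, 22.2% and 29.3%. The part of free RNA in the pericyte-like values was not tested.

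Between the sorts of 1 genotype, Actg2 was again the sole member past 1.5-fold. In WT it was higher in GFP+ by a log2 ratio of 1.93 (1.28 to 2.67), as 1 of 10 members against 28.4% of all genes. In Sod1KO it was higher in GFP+ by 0.84 (0.69 to 0.99), as 1 of 10 members against 15.9% of all genes. Both shares lay below the background. Cnn1 (0.40), Tagln (0.24) and Lmod1 (0.24) were somewhat higher and Pln (−0.37), Mylk (−0.30) and Des (−0.25) somewhat lower in GFP+ of Sod1KO.

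In other classes some members stood in a different ratio to Acta2 than in smooth muscle-like cells, and each gene was therefore set against Acta2 in the same cells. Tagln was at 317 (WT GFP+) and 319 CPM (Sod1KO GFP+) in myelinating Schwann-like cells, or 4342 and 4789 UMIs per 1000 Acta2 UMIs, against 628 and 821 in macrophage-like cells and 714 and 768 in smooth muscle-like cells. In perineurial-like cells of Sod1KO GFP- it was at 533 CPM and 2357 per 1000. Acta2 itself was at 226 CPM in those perineurial-like cells. The part of free RNA in these values was not tested.

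Mylk was also high relative to Acta2 in tenocyte-like cells, at 272 CPM in WT GFP+ and 229 CPM in Sod1KO GFP+, or 2257 and 1645 UMIs per 1000 Acta2 UMIs against 145 and 119 in smooth muscle-like cells. In Sod1KO GFP- it was at 2973 per 1000 against 150. Des was at 688, 417, 959 and 390 CPM in satellite-like cells, the stem cells of skeletal muscle, which are known to express desmin. The satellite-like class held 38, 58, 12 and 39 cells in WT GFP+, Sod1KO GFP+, WT GFP- and Sod1KO GFP-.

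Actg2 also had a small number of UMIs in nonmyelinating Schwann-like cells, at 5.19 CPM (34 UMIs, 397 cells) in WT GFP+ and 21.7 CPM (239 UMIs, 893 cells) in Sod1KO GFP+, for a log2 ratio of 2.06 (1.54 to 2.63). Different clusters held most of that class in each library. One led by Ucn2 and Olig1 had 551 cells in Sod1KO GFP+ and 36 in WT GFP+, with Actg2 at 32.1 CPM (28.0 to 36.6) and 14.5 CPM (3.94 to 37.0). The other had 222 and 322 cells, with Actg2 at 2.16 and 5.01 CPM. In Sod1KO GFP+ the class held 610 Actg2 UMIs per 1000 Acta2 UMIs, against 9.72 in smooth muscle-like and 7.60 in macrophage-like cells. Endothelial-like cells had 1.48, 7.79, 0.413 and 3.18 CPM in WT GFP+, Sod1KO GFP+, WT GFP- and Sod1KO GFP-. In both classes the Sod1KO library was the higher of its sort, although in the Schwann-like cluster led by other genes it was not.

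A wider list of 81 contractile genes in 7 roles, of which 78 matched, was read in the smooth muscle-like class. Sod1KO over WT was past 1.5-fold for 5 of 72 genes with enough UMIs in GFP+ (2 higher, 3 lower) and 8 of 71 in GFP- (6 higher, 2 lower), against the 12.0% and 24.6% of all genes given above. Both counts are shares below their background. Past it in 1 direction in both sorts were Lmod3, a leiomodin, at 3.69 CPM in WT GFP+ (log2 0.79 and 1.44, the latter with 4 UMIs in WT GFP-), and Mylk4, a kinase of the same family as Mylk, at 8.34 CPM (−0.91 and −1.06). The other 3 in GFP+ were Myh10 (0.88), Casq2 (−0.59) and Adra1d (−1.95, 3 against 20 UMIs), named after their values were seen.

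Among 20 thin filament genes, 1 was past the fold higher in GFP+, and in GFP- 1 was higher and 1 lower. The most abundant, Tpm1 (alpha-tropomyosin, 5277 CPM in WT GFP+) and Dstn (the actin-severing destrin, 4507 CPM), had log2 ratios of −0.25 and −0.23 in GFP+ and −0.29 and −0.38 in GFP-. A group of 14 genes held myosin light chains, the heavy chains Myh9 and Myh10, kinases, phosphatase genes and Rhoa. Of these, 1 was higher (Myh10) and 1 lower in GFP+, and 1 lower in GFP-. The light chains Myl6 (9634 CPM) and Myl9 (7625 CPM) stood at 0.08 and −0.02 in GFP+ and at 0.06 and −0.23 in GFP-. None of these 4 abundant genes passed the fold.

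Of 12 calcium handling genes tested, 1 was lower in GFP+ and 2 were higher in GFP-. Atp2a2, the calcium pump that Pln restrains, was at 981 CPM, with ratios of −0.32 and −0.06. None of 5 genes of relaxation by nitric oxide and cyclic nucleotides passed in either sort, with Prkg1, the cyclic GMP-dependent kinase, at 1313 CPM (0.05 and 0.48) and Pde3a, a phosphodiesterase, at 627 CPM (−0.07 and −0.04). Of the transcription factors 0 of 6 passed, with Klf4 at 599 CPM (−0.12 and −0.28) and Myocd, myocardin, at 165 CPM (0.43 and 0.09). The calcium handling genes past the fold were Casq2 in GFP+, and Ryr3 (0.90) and Trpc6 (0.59) in GFP-, named after their values were seen.

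Of 6 contractile receptors tested in GFP+, 1 was lower, and of 5 in GFP-, 3 were higher (Adra1a, Avpr1a and Htr2a), where WT GFP- held 13 UMIs of Avpr1a and 5 of Htr2a. The difference between sorts was not tested. Adra1a, an alpha-1 adrenergic receptor, at 319 CPM in WT GFP+, had ratios of −0.49 in GFP+ and 0.68 (0.46 to 0.91) in GFP-, and Ednra, the endothelin receptor A, at 122 CPM, had −0.27 and −0.08. Scaffold and intermediate filament genes passed in 0 of 9 in both sorts, with Vim, vimentin, at 3774 CPM (0.03 and −0.02) and Dmd, dystrophin, at 1562 CPM (0.10 and 0.37).

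Over 30 pairs of class and library, each member's level on the log2(CPM + 1) scale was correlated with the mean of the other 9. Pearson's r ranged from 0.71 (Mylk) and 0.73 (Des) to 0.97 (Acta2 and Tpm2), as a description over points that share libraries. The 5 genes outside all lists that were most like the mean of the members were Fbxl22 (r 0.96), Abcc8 (0.95), Hspb6 (0.95), AI593442 (0.95) and Gm45076 (0.94). Fbxl22, the F-box protein gene ranked first, was at 519 CPM in WT GFP+ smooth muscle-like cells, 15.1 CPM in pericyte-like cells and 271 CPM in the Actg2 cluster.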

How the data were processed

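The authors deposited filtered UMI count matrices, 1 per library, made with Cell Ranger 7.1.0 per the file headers and the submitters' processing notes, which also name mm10 and Seurat 4.30. The paper's methods state default settings, but for a later Cell Ranger version and another reference build. Default settings of 7.1.0 include intronic reads. That the deposited counts used them is inferred and was not checked. The deposited counts were used as they stand. Cells with more than 200 genes and under 10% mitochondrial UMIs were kept, and a simulated-doublet score removed 0.8% per 1000 barcodes, 27 to 366 cells per library. Cells of all libraries were clustered together (2000 variable genes, 30 components, 20 neighbours, Leiden resolution 1) without the 10 genes and the wider list. This gave 39 clusters, 13 of them unnamed. A name needed at least 3 non-contractile markers at 20 CPM or more and 2-fold above the rest. The 10 leading genes of a cluster were also read, which left the Actg2 cluster unnamed. UMIs were summed per class and library. Levels have exact Poisson intervals, and ratios have exact conditional binomial intervals at 95% confidence and needed at least 20 UMIs over both groups; where a class had 0 UMIs, 3 UMIs were used for the ratio as a bound. A ratio was called past 1.5-fold. With 1 library per group no test was made. The 10 genes, the lists and the markers were chosen with earlier results of these data known. Named genes were the 10 members, the 2 of highest WT GFP+ level in each role, those past the fold in both sorts, and the 5 most alike; 1 gene that the rule names is not reported here. The scripts were tested on simulated data. Clustering used leidenalg 0.10.2 with igraph 0.11.9 and scikit-learn 1.9.0 under Python 3.11.15, intervals scipy 1.17.1, tables pandas 2.3.3 and numpy 2.4.6, and figures matplotlib 3.10.9.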

Additional observations from a re-analysis of the deposited data

Results flagged for a closer look

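The log2 ratio of Sod1KO over WT had opposite signs in the GFP+ and GFP- sorts for 7 pairs of gene and class in which both counting intervals lay off 0; each sort is 1 library per genotype, and the difference between sorts was not tested. In smooth muscle-like cells these were Acta2 (0.027 in GFP+ and −0.12 in GFP-), Tagln (0.13 and −0.12), Pln (−0.11 and 0.43) and Mylk (−0.26 and 0.10), none past 1.5-fold. The GFP- values of Acta2 and Tagln were close in size to the −0.11 shift that median-of-ratios scaling takes out there. Acta2 kept its sign under 6 of 8 alternatives in each sort, and Tagln under 6 of 8 in GFP-. In pericyte-like cells the pairs were Acta2 (−0.90 and 1.47), Myh11 (−0.90 and 0.27) and Tagln (−0.89 and 1.90), on 36 Sod1KO and 39 WT cells in GFP+ and 203 and 53 cells in GFP-. Thinned to 1000 UMIs, 14.3% of Sod1KO and 28.2% of WT pericyte-like cells had a Tagln UMI in GFP+, and 17.2% and 5.66% in GFP-. For Acta2 the shares were 14.3% and 28.2% in GFP+ and 19.7% and 13.2% in GFP-. For Myh11 they were 40.0% and 41.0%, then 38.9% and 32.1%. Sod1KO and WT binomial intervals of these shares overlapped in each sort. The counting intervals of the ratios do not cover clumping of UMIs in few cells.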

How the results depend on the processing

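No paired analysis was possible because each group is 1 library, and for the same reason no replicate could be left out. Of 96 values of the counts and main comparisons under alternatives, 78 stayed within 1.5 times, and 18 moved. Of 160 values of single members, 86 stayed, 73 moved and 1 was labelled reversed. That label does not count every change of sign. In GFP- smooth muscle-like cells Cnn1 kept its sign under 3 of 8 alternatives and Lmod1 under 4 of 8, the fewest. With a stricter cell filter (more than 500 genes, under 5% mitochondrial UMIs), the members past the fold in smooth muscle-like cells became 5 for Sod1KO against WT in GFP-, 9 for GFP+ against GFP- in WT and 6 in Sod1KO (1 each before), the wider list 9 in GFP+ and 35 in GFP-, and the pericyte-like GFP- count 1. It also reversed the Actg2 ratio in GFP- to −0.32 and turned the sign of Acta2 (0.37), Myh11 (1.05), Tagln (0.13), Cnn1 (0.30), Lmod1 (0.74) and Des (0.84) there; it left 8 Sod1KO cells and, by taking in another cluster, 99 WT cells. Clustering with the contractile genes gave 1 member in pericyte-like GFP+ cells, 2 in smooth muscle-like GFP- cells and 26 wider genes in GFP-, and turned the sign of the same 6 members in GFP- (0.06 to 0.34). A per-cell marker rule gave 0 in pericyte-like cells of both sorts. A fold of 2 gave 0 in pericyte-like GFP+ cells, 0 for GFP+ against GFP- in Sod1KO, and 1 and 4 wider genes in GFP+ and GFP-. Mean per-cell CPM gave 15 wider genes in GFP-, median-of-ratios scaling gave 4 members in pericyte-like GFP- cells, and counting the Actg2 cluster as smooth muscle-like, an alternative chosen after seeing the data, gave 10 wider genes in GFP+. The cause of these moves was not tested beyond the cell numbers given. The Actg2 ratio in GFP+ was past 1.5-fold under all 8 alternatives, from 0.92 to 1.47 on the log2 scale. These alternatives included a run with ambient RNA subtracted, under which Des in GFP+ smooth muscle-like cells stood at −0.47. The number of cells limits the WT GFP- smooth muscle-like class (36 cells, as deep per cell as the others) and the pericyte-like class of 3 libraries (36 to 53 cells).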
